A study of Mus musculus with 54 samples.

Results

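The 10 genes of the unfolded protein response of the endoplasmic reticulum (ER) followed here were measured in the hearts and livers of mice with altered fidelity of mitochondrial translation: Hspa5, Hsp90b1, Hyou1, Dnajb9, Pdia4, Sdf2l1, Creld2, Manf, Herpud1 and Xbp1. They were taken by name from the normalised count tables of the 2 tissues, where all 10 members were found once among 54356 genes. The mice were of the C57BL/6 strain, 20 weeks old and fed a high-fat diet (HFD) with 42% of its energy from fat, and RNA came from whole hearts or whole livers. The 3 genotypes were wild-type Mrps12+/+ mice, Mrps12ep/ep mice, homozygous for an error-prone change in the mitochondrial ribosomal protein MRPS12, and Mrps12ha/ha mice, homozygous for a hyper-accurate change in it. Each genotype had 3 mice per tissue and each mouse 3 technical libraries, 54 libraries in all. Both mutants carried the change in every tissue, all mice ate the HFD, and no group on a normal chow diet was analysed here. Mice are numbered within genotype and tissue as in the labels, which do not say whether a heart and a liver with the same number came from 1 animal.

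The ER folds and modifies proteins that are secreted or put into membranes, and the load is heavy in hepatocytes, which secrete most plasma proteins. When unfolded protein accumulates there, the sensors IRE1, ATF6 and PERK are activated. IRE1 splices the mRNA of Xbp1 and ATF6 is cleaved to a transcription factor, and together XBP1 and ATF6 induce chaperones, folding enzymes and components that remove misfolded protein. PERK lowers general translation and acts through ATF4 on a separate group of genes, which includes Ddit3 (Chop). The gene-level counts used here do not separate spliced from unspliced Xbp1 mRNA.

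Elements of the ER stress response upstream of these genes were looked up first. The ER stress response element, bound by NF-Y and ATF6, was searched as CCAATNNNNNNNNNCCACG, and a related element, ERSE-II, as ATTGGNCCACG, on both strands of the 250 bases before the RefSeq start (GRCm38.p6). Of the 10 genes, 8 had an entry in the promoter table, and Hyou1 and Manf had none. The first element was found upstream of 3 of these 8 genes and in 0.113% of 32851 promoters, and the second upstream of 1 of the 8 and in 0.0304% of promoters. The 4 stretches that hold them are printed on the strand of the gene with the elements in capitals, because Hspa5, Hsp90b1 and Creld2 hold the first element and Herpud1 the second. For Hsp90b1 the bases inside annotated exons were left out. For Hspa5 only 30 bases around the element are shown, which lie in an exon of another annotated Hspa5 transcript, and the rest of its 250 bases, inside and outside exons, is not shown.
Hspa5, chr2:34772019-34772048, plus strand: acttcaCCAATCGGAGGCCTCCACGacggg
Hsp90b1, chr10:86705510-86705694, minus strand: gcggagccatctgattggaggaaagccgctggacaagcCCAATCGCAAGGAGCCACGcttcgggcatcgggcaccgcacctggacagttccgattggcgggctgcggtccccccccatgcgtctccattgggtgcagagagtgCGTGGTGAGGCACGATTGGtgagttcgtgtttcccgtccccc
Creld2, chr15:88819396-88819645, plus strand: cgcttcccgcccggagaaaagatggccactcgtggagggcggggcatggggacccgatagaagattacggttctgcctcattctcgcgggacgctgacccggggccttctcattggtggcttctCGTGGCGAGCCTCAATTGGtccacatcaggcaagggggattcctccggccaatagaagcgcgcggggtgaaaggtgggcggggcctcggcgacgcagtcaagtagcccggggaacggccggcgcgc
Herpud1, chr8:94386179-94386428, plus strand: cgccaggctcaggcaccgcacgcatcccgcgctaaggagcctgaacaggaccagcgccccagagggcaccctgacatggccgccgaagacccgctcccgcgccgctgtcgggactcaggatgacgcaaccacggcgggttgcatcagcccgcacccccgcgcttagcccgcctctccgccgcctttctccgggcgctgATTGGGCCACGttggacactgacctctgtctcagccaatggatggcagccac

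The element began 65 bases before the start in Hspa5 and 126 bases before it in Creld2, where it reads on the other strand. Hsp90b1 held it at 212 bases on the strand of the gene and again at 107 bases on the other strand. Herpud1 held ERSE-II at 52 bases, and also the letters TGATGNAA of the element bound by C/EBP and ATF4 at 112 bases on the other strand, which 3.45% of promoters held. The letters TGACGTG, the core of the XBP1 element, were found at 157 bases in Hspa5, outside the stretch shown, and in 1.65% of promoters. These matches are descriptions of the letters and were not tested as binding sites.

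The targeted gene Mrps12 (ENSMUSG00000045948.8) cannot check the genotypes through its level, because both mutations change the protein and leave the gene in place. Its normalised counts were 1651 ± 125 in Mrps12+/+, 1756 ± 50.8 in Mrps12ep/ep and 1796 ± 151 in Mrps12ha/ha livers (SD, n = 3), and in the heart they were 1078 ± 67.9, 1161 ± 117 and 1271 ± 165. Livers held 21.2 to 81.5 M (mega) reads and hearts 11.2 to 51.5 M, the shallowest being Mrps12ha/ha liver 1 and Mrps12ha/ha heart 2. The tissues were as labelled: 6 cardiomyocyte genes together took 64400 to 94500 RPM (reads scaled to a common library depth) in the hearts and 0.807 to 133 in the livers, the highest in Mrps12ha/ha liver 3. The 6 hepatocyte genes took 80100 to 121000 RPM in the livers and 16.2 to 454 in the hearts. Mrps12+/+ livers 1 and 2 stood apart in skeletal muscle genes, whose 5 members took 228 and 183 RPM there and 0.336 to 2.00 in the other 7 livers. Atrial genes took 135 to 311 RPM in Mrps12ha/ha hearts and 50.2 to 12900 in the other hearts, and mesothelial genes 9.24 to 15.3 against 18.0 to 88.8, and their part in the heart values was not tested.

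In wild-type tissue the genes were more abundant in the liver than in the heart. In RPM, the liver mean was from 1.8 times the heart mean for Hspa5 to 7.77 times for Sdf2l1. On the normalised counts these ratios were 2.75 and 11.9, and since the tissues were normalised separately the difference was not tested. Per length, as reads per kilobase of annotated exon at equal depth (RPKM), the chaperones Hsp90b1 (171 ± 17.6) and Hspa5 (167 ± 15.4) and the ER membrane protein Herpud1 (166 ± 50.2) led in the heart (SD, n = 3). Their ranges overlapped with each other and lay above those of the other 7 genes. Next in the heart came Xbp1 at 33 ± 1.44, then Dnajb9 at 25.8 ± 2.70, whose ranges did not overlap with each other or with those of the genes below. Pdia4 (17.8 ± 1.64) and Manf (16.2 ± 1.39) overlapped, as did Hyou1 (13.3 ± 0.608) and Creld2 (12.0 ± 1.36), and Sdf2l1 was lowest at 4.25 ± 0.493.

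In the liver Herpud1 was the most abundant per length, at 459 ± 141, followed by Hsp90b1 at 387 ± 76.6 and Hspa5 at 300.0 ± 82.7. The mice of these neighbours overlapped, and Pdia4 at 117 ± 25.8 lay below all of them. From Pdia4 down through Xbp1 (83.8 ± 22.7), Creld2 (66.1 ± 23.9), Manf (57.9 ± 16.3), Hyou1 (55.7 ± 22.2), Dnajb9 (47.8 ± 12.2) and Sdf2l1 (33 ± 13.9), each gene overlapped with its neighbours. By this order Dnajb9 was number 5 in the heart and number 9 in the liver, and Sdf2l1 was number 10 in both.

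**Figure D1:**
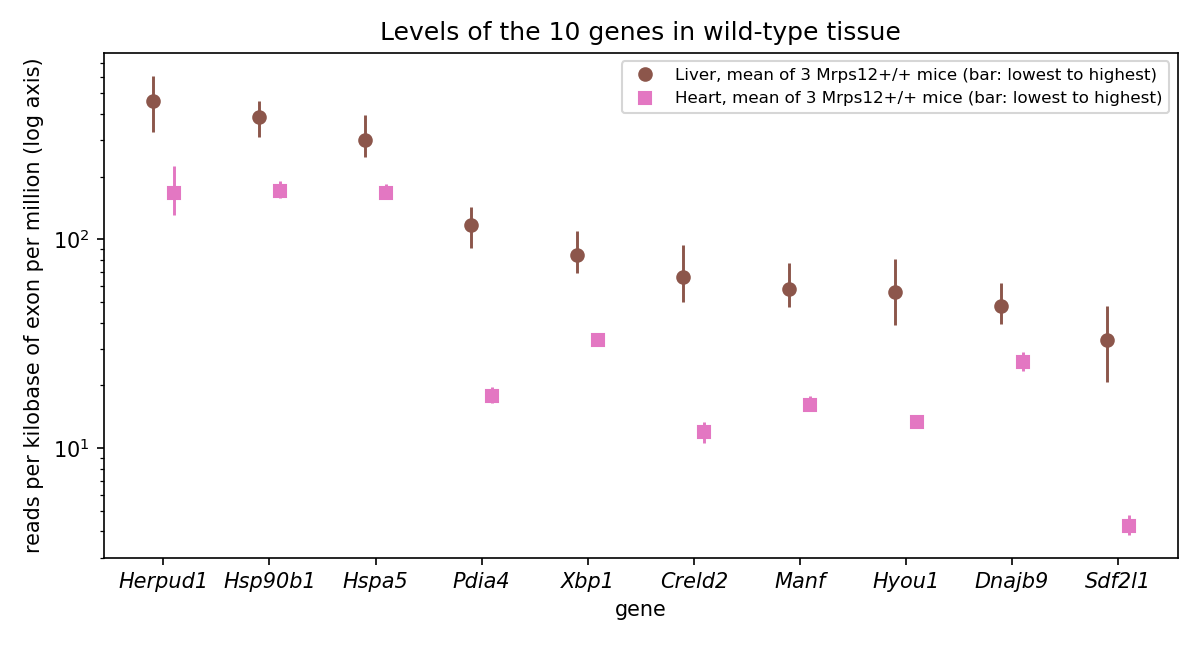
RPKM (log axis) of each gene in the livers (circles) and hearts (squares) of the 3 Mrps12+/+ mice, as the mean with a bar from the lowest to the highest mouse. Herpud1, Hsp90b1 and Hspa5 stand above the other 7 genes in both tissues, and Sdf2l1 is lowest at 33 in the liver and 4.25 in the heart.

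The comparison of Mrps12ha/ha with Mrps12+/+ livers asks whether hyper-accurate mitochondrial translation on the HFD goes with another level of the ER stress genes. All 10 genes had a lower mean in Mrps12ha/ha livers, from 0.416 times the Mrps12+/+ mean for Creld2 to 0.926 times for Xbp1. The median log2 fold change of the 10 was -0.80, against -0.02 over all 15314 genes tested. None of the 10 passed an adjusted p of 0.05 in limma over all genes, and 0.00653% of all genes did. At an unadjusted p under 0.05, 8 of the 10 were lower, against 7.05% of all genes. In 7 of the 10 every Mrps12ha/ha liver lay below every Mrps12+/+ liver, against 9.81% of all genes. With limma-voom on the recovered reads 8 of the 10 again were lower at an unadjusted p under 0.05, against 11.5% of all genes, and 0 had an adjusted p under 0.05. With 3 mice against 3, the exact two-sided permutation test cannot give a p below 0.1.

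Hspa5 (ENSMUSG00000026864.13; GRCm38 chromosome 2, 34771970 to 34777547) encodes BiP, the main Hsp70 chaperone of the ER lumen, which also holds the sensors inactive. Its normalised counts were 70448, 46367 and 51928 in the 3 Mrps12+/+ livers and 25769, 41189 and 31973 in the 3 Mrps12ha/ha livers. Mrps12ep/ep livers held 53860, 59902 and 51941. Every Mrps12ha/ha liver was below all 6 others, whose 2 genotypes overlapped. The Mrps12ha/ha mean of 32977 ± 7760 (SD, n = 3) was 0.586 times the Mrps12+/+ mean of 56248 ± 12600, a log2 fold change of -0.77 with a standard error of 0.20 (limma, adjusted p = 0.168, exact permutation p = 0.1). The 95% interval of the log2 fold change ran from -1.23 to -0.32.

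Hsp90b1 (ENSMUSG00000020048.13; chromosome 10, 86690209 to 86705509) encodes GRP94, the Hsp90 chaperone of the ER. Its normalised counts were 61751, 43525 and 59237 in Mrps12+/+ livers, 50827, 50271 and 55377 in Mrps12ep/ep livers, and 32683, 45652 and 36036 in Mrps12ha/ha livers. Mrps12ha/ha liver 2 lay above Mrps12+/+ liver 2, so that these groups overlapped. The log2 fold change against Mrps12+/+ was -0.52 with a standard error of 0.17 (limma, adjusted p = 0.246). Hyou1 (ENSMUSG00000032115.14; chromosome 9, 44379490 to 44392369) encodes GRP170, which exchanges the nucleotide on BiP. Its counts in the same order of genotypes were 18323, 11297 and 9973, then 12357, 15093 and 11000, then 5365, 9726 and 7090. The highest Mrps12ha/ha liver was just under the lowest Mrps12+/+ liver, and the log2 fold change was -0.83 with a standard error of 0.26 (limma, adjusted p = 0.23).

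Dnajb9 (ENSMUSG00000014905.4; chromosome 12, 44205559 to 44210326) encodes ERdj4, a BiP cochaperone induced by spliced XBP1. It had 7209, 5220 and 5177 normalised counts in Mrps12+/+, 5488, 6032 and 4710 in Mrps12ep/ep, and 2699, 3606 and 3355 in Mrps12ha/ha livers. The Mrps12ha/ha livers stood apart from both other genotypes, which overlapped. At a log2 fold change of -0.86 with a standard error of 0.16 it had the lowest adjusted p of the 10 genes in this comparison (limma, 0.106), which ranged from 0.0668 to 0.305 over the planned and added alternatives.

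Pdia4 (ENSMUSG00000025823.9; chromosome 6, 47796141 to 47813430) encodes ERp72, which forms and rearranges disulfide bonds. Its normalised counts were 16232, 10937 and 15122 in Mrps12+/+, 11707, 14932 and 13703 in Mrps12ep/ep, and 7566, 10040 and 8527 in Mrps12ha/ha livers. The Mrps12ha/ha livers again lay below all others. The log2 fold change was -0.68 with a standard error of 0.17 (limma, adjusted p = 0.151). Leaving out both Mrps12+/+ livers with skeletal muscle transcripts brought the adjusted p of Pdia4 to 0.0459, with 1 Mrps12+/+ liver left, and 1062 genes in all were then called.

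Sdf2l1 (ENSMUSG00000022769.9; chromosome 16, 17130138 to 17132383) encodes a partner of ERdj3 that keeps BiP clients soluble. Its counts were 2530, 1147 and 1796 in Mrps12+/+, 1367, 2043 and 1547 in Mrps12ep/ep, and 633, 1098 and 733 in Mrps12ha/ha livers. The wild-type livers spread more than those of Hspa5 relative to their mean, and the highest Mrps12ha/ha liver came close to the lowest Mrps12+/+ one. The log2 fold change was -1.12 with a standard error of 0.30 (limma, adjusted p = 0.17).

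Creld2 (ENSMUSG00000023272.4; chromosome 15, 88819646 to 88826683) encodes an ER-resident, partly secreted protein with disulfide isomerase activity. It had 6069, 3712 and 3679 normalised counts in Mrps12+/+, 2758, 5692 and 2990 in Mrps12ep/ep, and 1319, 2469 and 1816 in Mrps12ha/ha livers. The Mrps12ha/ha mean of 1868 ± 577 was 0.416 times the Mrps12+/+ mean of 4486 ± 1370 (SD, n = 3), the lowest ratio among the 10 genes. The log2 fold change was -1.27 with a standard error of 0.32 (limma, adjusted p = 0.158).

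Manf (ENSMUSG00000032575.16; chromosome 9, 106838312 to 106891979) encodes a small ER protein that binds BiP and is secreted under stress. Its counts were 8964, 5885 and 6509 in Mrps12+/+, 5942, 7855 and 6379 in Mrps12ep/ep, and 2951, 5133 and 4053 in Mrps12ha/ha livers, with no overlap of the last group with the others. The log2 fold change against Mrps12+/+ was -0.83 with a standard error of 0.22 (limma, adjusted p = 0.169).

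Herpud1 and Xbp1 differed least of the 10 genes between Mrps12ha/ha and Mrps12+/+ livers. Herpud1 (ENSMUSG00000031770.16; chromosome 8, 94386438 to 94395377) encodes a membrane protein of the complex that exports misfolded proteins for degradation, and its normalised counts were 56131, 43600 and 34004 in Mrps12+/+, 49496, 58416 and 54729 in Mrps12ep/ep, and 34177, 39446 and 31613 in Mrps12ha/ha livers. Mrps12+/+ liver 3 was as low as the Mrps12ha/ha livers, so the groups overlapped, and the log2 fold change was -0.32 with a standard error of 0.18 (limma, adjusted p = 0.46). Xbp1 (ENSMUSG00000020484.18; chromosome 11, 5520659 to 5525893), the transcription factor itself, had 7867, 8618 and 14058 counts in Mrps12+/+, 8756, 8277 and 8263 in Mrps12ep/ep, and 7312, 11779 and 9202 in Mrps12ha/ha livers. Its total mRNA was highest in Mrps12+/+ liver 3, where Herpud1 was lowest of its group. The log2 fold change of Xbp1 was -0.09 with a 95% interval from -0.60 to 0.42 (limma, adjusted p = 0.895).

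**Figure D2:**
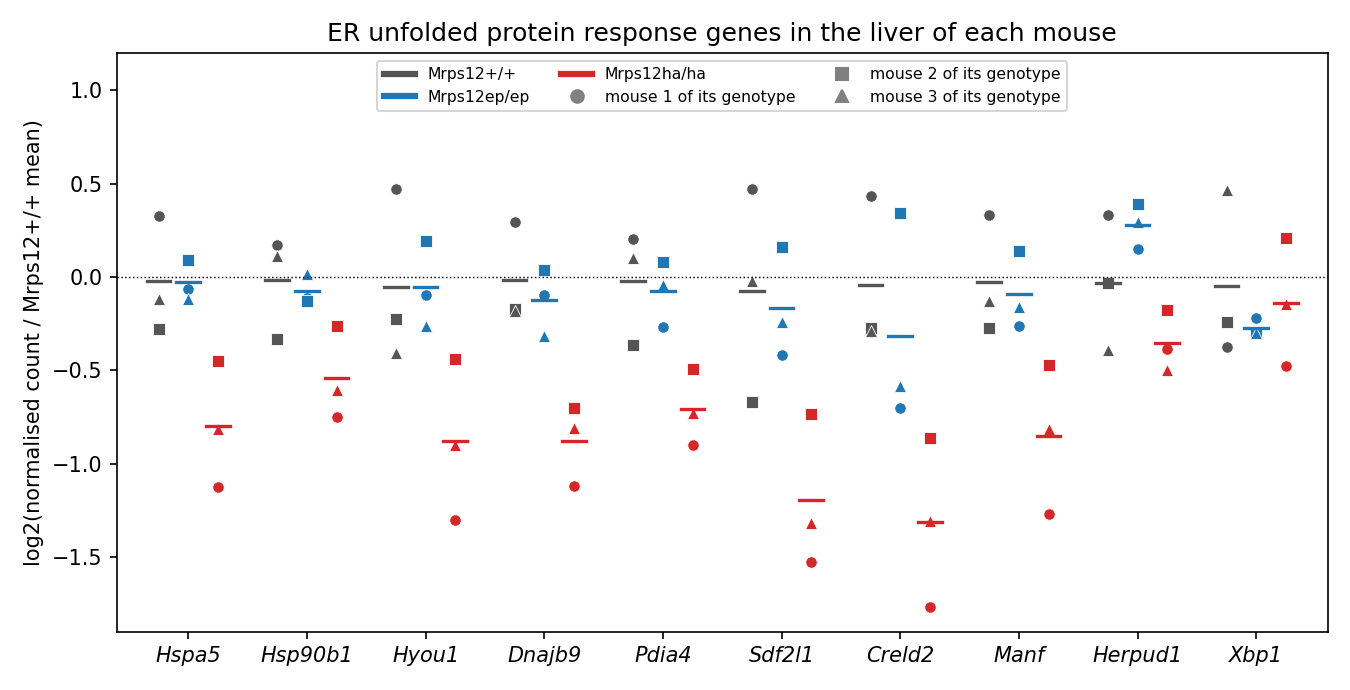
Each point is a liver, plotted as log2 of its normalised count over the Mrps12+/+ mean of that gene, with a bar at the mean of the plotted log2 values for each genotype; colours mark genotypes and symbols the mouse number. For 7 of the 10 genes all 3 Mrps12ha/ha livers lie below every Mrps12+/+ liver, while Hsp90b1, Herpud1 and Xbp1 overlap.

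Within the Mrps12ha/ha livers the genes kept an order: liver 2 was the highest in 10 of the 10 genes and liver 1 the lowest in 9. Liver 1 was also the shallowest, at 21.2 M reads, and liver 2 the deepest, at 81.5 M. Mrps12ep/ep liver 3 was nearly as shallow, at 23.8 M, and its 10 genes had a median log2 ratio to the Mrps12+/+ mean of -0.15, against -1.10 in Mrps12ha/ha liver 1, -0.44 in liver 2 and -0.79 in liver 3. The part of library depth in these values was not tested. Among the wild-type livers liver 1 was the highest in 9 of the 10 genes. Without Mrps12ha/ha liver 1 the median log2 fold change of the 10 genes was -0.61 and 6 were lower at an unadjusted p under 0.05, against 5.69% of all genes in that fit. Without Mrps12+/+ liver 1 these were -0.59 and 8, against 7.14%. Without both Mrps12+/+ livers with skeletal muscle transcripts the median was -0.69 and 7 genes were lower at that p, against 11.7%, and Herpud1 then had a log2 fold change of 0.04. Without the pair of shallowest livers the values were -0.61 and 6, against 5.05%. Both of these joint omissions were chosen after the values were seen.

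Summed over the 10 genes, Mrps12ha/ha livers gave 2383, 3058 and 2558 RPM to them, Mrps12+/+ livers 5385, 3600 and 3765, and Mrps12ep/ep livers 3997, 4307 and 3987. No Mrps12ha/ha liver reached the lowest liver of either other genotype. In whole tissue, fewer cells with these transcripts and less of them per cell cannot be told apart.

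Against the error-prone mutant the hyper-accurate livers gave a similar picture. Of the 10 genes, 9 had a lower mean in Mrps12ha/ha than in Mrps12ep/ep livers, and the log2 fold changes had a median of -0.76. None of the 10 passed an adjusted p of 0.05 in limma (lowest 0.417) or limma-voom, and 0.00653% of all genes did in limma. At an unadjusted p under 0.05 these 9 genes were lower, against 4.45% of all genes, and the same 9 genes had no overlap between the groups, against 9.01%. Creld2 had a log2 fold change of -1.0 with a standard error of 0.32, Sdf2l1 one of -1.03 with 0.30, and Hspa5 one of -0.77 with 0.20. Herpud1 differed more here than against Mrps12+/+, with a log2 fold change of -0.63 and a standard error of 0.18 (limma, adjusted p = 0.428), and its lowest Mrps12ep/ep liver, at 49496 normalised counts, was above its highest Mrps12ha/ha liver, at 39446. Xbp1 had a log2 fold change of 0.13 with a 95% interval from -0.37 to 0.64. This comparison and the former share the Mrps12ha/ha livers.

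Mrps12ep/ep livers lay near the wild-type level in these genes, compared with the same Mrps12+/+ livers. The median log2 fold change of Mrps12ep/ep against Mrps12+/+ livers was -0.06, and single genes lay between -0.27 for Creld2 and 0.31 for Herpud1. None of the 10 had an adjusted p under 0.05, against 0.00653% of all genes, or an unadjusted one, against 9.74%, and no gene separated the groups, against 12.8% (limma; limma-voom called 0 as well). For Hspa5 the 95% interval of the log2 fold change ran from -0.46 to 0.45 and for Creld2 from -1.0 to 0.46. Differences within these limits were thus not excluded with 3 mice.

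**Figure D3:**
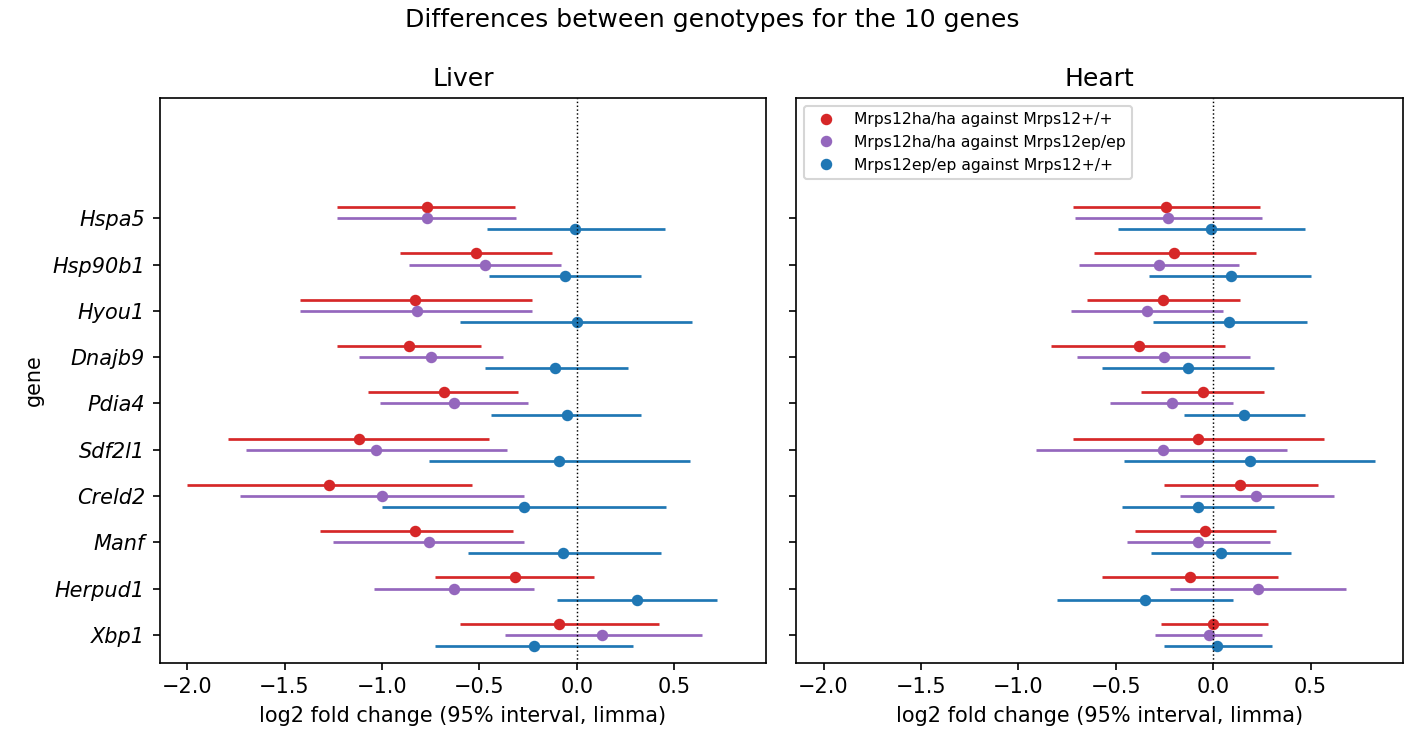
Log2 fold changes (points) with 95% intervals (lines) from limma for each gene in the livers and the hearts, for the 3 comparisons of genotypes. In the liver the intervals of both Mrps12ha/ha comparisons lie below 0 for the same 8 genes, and for Herpud1 in the comparison with Mrps12ep/ep alone, and those of Mrps12ep/ep against Mrps12+/+ include 0 for all 10; in the heart all intervals include 0.

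In the hearts the same genes did not separate the genotypes. The median log2 fold change of Mrps12ha/ha against Mrps12+/+ hearts was -0.10, against -0.02 over all 16057 genes tested, with 8 genes lower and 2 higher. None of the 10 had an adjusted p under 0.05 (limma), against 0.0311% of all genes, or an unadjusted one, against 19.7%, and none separated the groups, against 21.2%. With limma-voom 0 had an adjusted p under 0.05 and 1 was lower at an unadjusted one, against 14.1% of all genes. Hspa5 had 22923, 18781 and 19642 normalised counts in Mrps12+/+ hearts and 13726, 24236 and 15418 in Mrps12ha/ha hearts. Mrps12ha/ha hearts 1 and 3 were thus below the wild-type range and heart 2 above it.

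Heart 2 was the shallowest heart, at 11.2 M reads, and had the lowest weight of the 9 hearts, 0.167, when limma weighed libraries by their spread. In Dnajb9, with 1347, 2250 and 1294 counts in Mrps12ha/ha hearts against 1913, 1982 and 2294 in Mrps12+/+ hearts, hearts 1 and 3 were again below the wild-type range and heart 2 was within it. In Hsp90b1 heart 2 was just above that range, with 11210, 17825 and 12761 against 17804, 14270 and 15058. Hyou1 had 1296, 2181 and 1812 against 2173, 1931 and 2077, and its heart 2 too was just above. Without Mrps12ha/ha heart 2, the log2 fold changes of Hspa5 and Dnajb9 were -0.49 and -0.64 and both had an adjusted p under 0.05 in limma (0.0387 and 0.00526), as 4330 of all genes then did. Over all alternatives the adjusted p of Hspa5 went up to 0.899 and that of Dnajb9 up to 0.633.

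The other genes of the heart gave no such split. Creld2 was at 533 ± 67.8 in Mrps12+/+ and 595 ± 126 in Mrps12ha/ha hearts (SD, n = 3), which gave 0.14 on the log2 scale with a standard error of 0.17, and Sdf2l1 at 153 ± 19.8 and 153 ± 68.4. Manf was at 1301 ± 129 and 1283 ± 273, Pdia4 at 1391 ± 146 and 1340 ± 133, and Xbp1 at 2563 ± 111 and 2575 ± 313. Differences of these 5 genes were within the spread of the mice. Herpud1 was at 8467, 9005 and 14146 counts in Mrps12+/+ hearts and at 8613, 10129 and 9600 in Mrps12ha/ha hearts, and wild-type heart 3 lay above the other 5.

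Mrps12ep/ep hearts were close to wild type. Their log2 fold changes had a median of 0.03 and ranged from -0.35 for Herpud1 to 0.19 for Sdf2l1. None of the 10 had an adjusted p under 0.05 in limma, against 0% of all genes, or in limma-voom, which called 2 genes in all, or an unadjusted one in limma, against 1.69%, and none separated the groups, against 8.03%. Mrps12ha/ha against Mrps12ep/ep hearts gave a median of -0.22, from -0.34 for Hyou1 to 0.23 for Herpud1. Again 0 of 10 passed the adjusted threshold in limma, against 0.0249% of all genes, and in limma-voom, which called 3 genes in all. Of the 10, 0 had an unadjusted p under 0.05 in limma, against 17.9%, and 0 separated the groups, against 16.6%. Without Mrps12ha/ha heart 2, Hspa5, Hsp90b1, Dnajb9 and Hyou1 were called lower in this comparison, with 3730 genes in all.

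**Figure D4:**
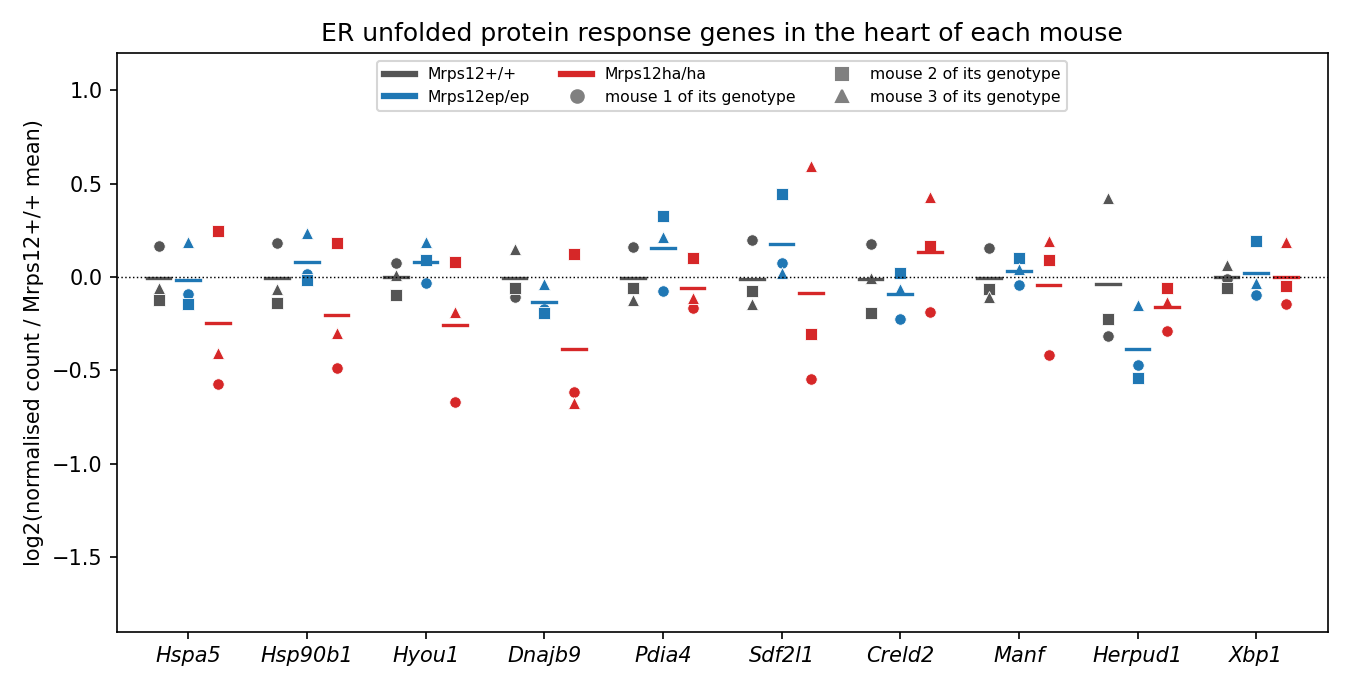
Each point is a heart, plotted as log2 of its normalised count over the Mrps12+/+ mean of that gene, on the same axis range as the plot of the livers, with a bar at the mean of the plotted log2 values. Mrps12ha/ha hearts 1 and 3 lie under the wild-type hearts for Hspa5, Hsp90b1, Hyou1 and Dnajb9, and heart 2 lies with or above them.

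Across mice, the levels of the 10 genes varied together more closely in the liver than in the heart. Over the 9 livers, the median Pearson r between pairs of the 10 genes was 0.909, and without Xbp1 and Herpud1 the lowest pair had 0.811. Each gene was also set against the mean standardised level of the other 9. There r was 0.991 for Manf, 0.99 for Hspa5 and 0.982 for Sdf2l1, and 0.69 for Herpud1 and 0.04 for Xbp1. Over the 9 hearts the median of the pairs was 0.361, and Hyou1 led with 0.905 while Herpud1 had 0.0246. These correlations describe 9 mice of 3 genotypes, which share the difference between genotypes and the scaling of each library.

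The genes most like the 10 over the livers, by correlation with their mean standardised level, were Tfg (r = 0.982), which acts at ER exit sites, Dnajb11 (0.974), the BiP cochaperone ERdj3, Derl3 (0.964), of the channel for misfolded proteins, Arih1 (0.962), a ubiquitin ligase, and Serp1 (0.96), which is tied to the translocon. Of these, 2 were on the lists of secretory pathway genes described next. In the hearts they were Gm44710 (0.936), Smad4 (0.935), Tgm2 (0.933), Fam126a (0.929) and Pomt2 (0.928), none of them on these lists.

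The wider secretory pathway was described with 8 lists of 120 genes besides the 10. In Mrps12ha/ha against Mrps12+/+ livers 103 of the 120 were lower and 17 higher, 32 were lower at an unadjusted p under 0.05 and 2 higher, against 1080 and 1083 of all 15314 genes, and 0 had an adjusted p under 0.05 (limma). Every list had a median below 0, from -0.09 for 6 sensors and processing enzymes to -0.41 for 12 genes of the PERK and ATF4 branch, none as low as the -0.80 of the 10 genes. Over all genes tested 8032 of 15314 were lower. Against Mrps12ep/ep livers 103 were lower too, and 34 at an unadjusted p under 0.05, where 7695 and 681 of all 15314 genes were. In Mrps12ep/ep against Mrps12+/+ livers 68 of the 120 were lower and 4 of them at that p, against 7826 and 784 of all genes. In both comparisons 0 of the 120 had an adjusted p under 0.05 (limma).

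Among chaperones and cochaperones, 13 of 17 were lower in Mrps12ha/ha than in Mrps12+/+ livers, 5 at an unadjusted p under 0.05, with a median of -0.17. Over all 15314 genes 8032 were lower, 1080 of them at that p (limma). Dnajb11 had 6899, 5488 and 6706 normalised counts in Mrps12+/+ and 4044, 5230 and 4106 in Mrps12ha/ha livers, a log2 fold change of -0.52 with a standard error of 0.14 (limma, adjusted p = 0.168). Calr, the lectin chaperone calreticulin, had a log2 fold change of -0.51 with a standard error of 0.16 (limma, adjusted p = 0.223). Of 14 oxidoreductases 11 were lower, 5 at an unadjusted p under 0.05, with a median of -0.22. Txndc11 had a log2 fold change of -0.44 with a standard error of 0.14. Qsox1, a sulfhydryl oxidase, had one of -0.60 with 0.28. Its counts were 16150, 17117 and 38104 in Mrps12+/+ livers, where liver 3 stood apart, and 14304, 15930 and 13291 in Mrps12ha/ha livers. In Mrps12ep/ep against Mrps12+/+ livers its log2 fold change was -0.53.

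In N-glycosylation, 14 of 15 genes were lower, 8 at an unadjusted p under 0.05, against 8032 and 1080 of all 15314 genes. The median was -0.32. Alg12, a mannosyltransferase of the glycan precursor, had 714, 721 and 731 normalised counts in Mrps12+/+ and 393, 509 and 421 in Mrps12ha/ha livers, a log2 fold change of -0.72 with a standard error of 0.13 (limma, adjusted p = 0.0965). Gfpt1, the first enzyme of hexosamine synthesis, had a log2 fold change of -0.58 (standard error 0.19). Of 20 genes of ER-associated degradation 17 were lower, 6 at an unadjusted p under 0.05, against the same numbers of all genes. The median of the 20 was -0.13, with Edem3 at -0.43 and Ube2j1 at -0.28 on the log2 scale.

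Of 16 translocon and signal peptidase genes 14 were lower, 2 at an unadjusted p under 0.05, against 8032 and 1080 of all 15314 genes. The median of -0.13 lay between the quartiles of all genes, -0.22 and 0.19. Srprb, a subunit of the signal recognition particle receptor, had a log2 fold change of -0.51 (limma, standard error 0.12, adjusted p = 0.149). In transport from the ER to the Golgi 19 of 20 genes were lower and 1 higher, with the same median of -0.13. At an unadjusted p under 0.05, 2 of these 20 were lower and 1 higher. The 2 forms of the coat GTPase SAR1 went apart there, Sar1a with a log2 fold change of -0.37 and Sar1b with 0.35, and in both the groups did not overlap. Among 12 genes of the PERK and ATF4 branch 11 were lower in the liver, 3 of them at an unadjusted p under 0.05. Ddit3 was 1 of the 3, with a log2 fold change of -0.71 and a standard error of 0.22 (limma, adjusted p = 0.212). Trib3, a pseudokinase induced by ATF4, was the 1 higher gene, also at an unadjusted p under 0.05. It had 297, 378 and 278 counts in Mrps12+/+ and 497, 529 and 501 in Mrps12ha/ha livers (limma, log2 fold change 0.69, adjusted p = 0.27).

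In Mrps12ha/ha against Mrps12+/+ hearts 73 of 119 tested genes of these lists were lower and 46 higher, 17 and 9 of them at an unadjusted p under 0.05, against 1620 lower and 1548 higher of all 16057 genes, and 0 had an adjusted p under 0.05 (limma). The median of transport from the ER to the Golgi was lowest, at -0.29, with 17 of 20 genes lower, against 8394 of all 16057 genes. Of these 20 genes 6 were lower at an unadjusted p under 0.05, and the lowest adjusted p was 0.213 (limma). In the PERK and ATF4 branch the median was 0.04, with 9 of 12 genes higher and 3 lower. At an unadjusted p under 0.05, 3 were higher and 1 lower. Ddit3 was among the 3, with a log2 fold change of 0.80 and a standard error of 0.15 (limma, adjusted p = 0.144). Atf3, a transcription factor of many stress responses, had 708, 741 and 919 counts in Mrps12+/+ and 214, 326 and 284 in Mrps12ha/ha hearts. Its log2 fold change was -1.53 (limma, adjusted p = 0.0935), and that of Trib3 was 0.96 (limma, adjusted p = 0.191). In Mrps12ep/ep against Mrps12+/+ hearts Atf3 had a log2 fold change of -0.65 without overlap of the groups. Its adjusted p there was above 0.05 (limma).

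**Figure D5:**
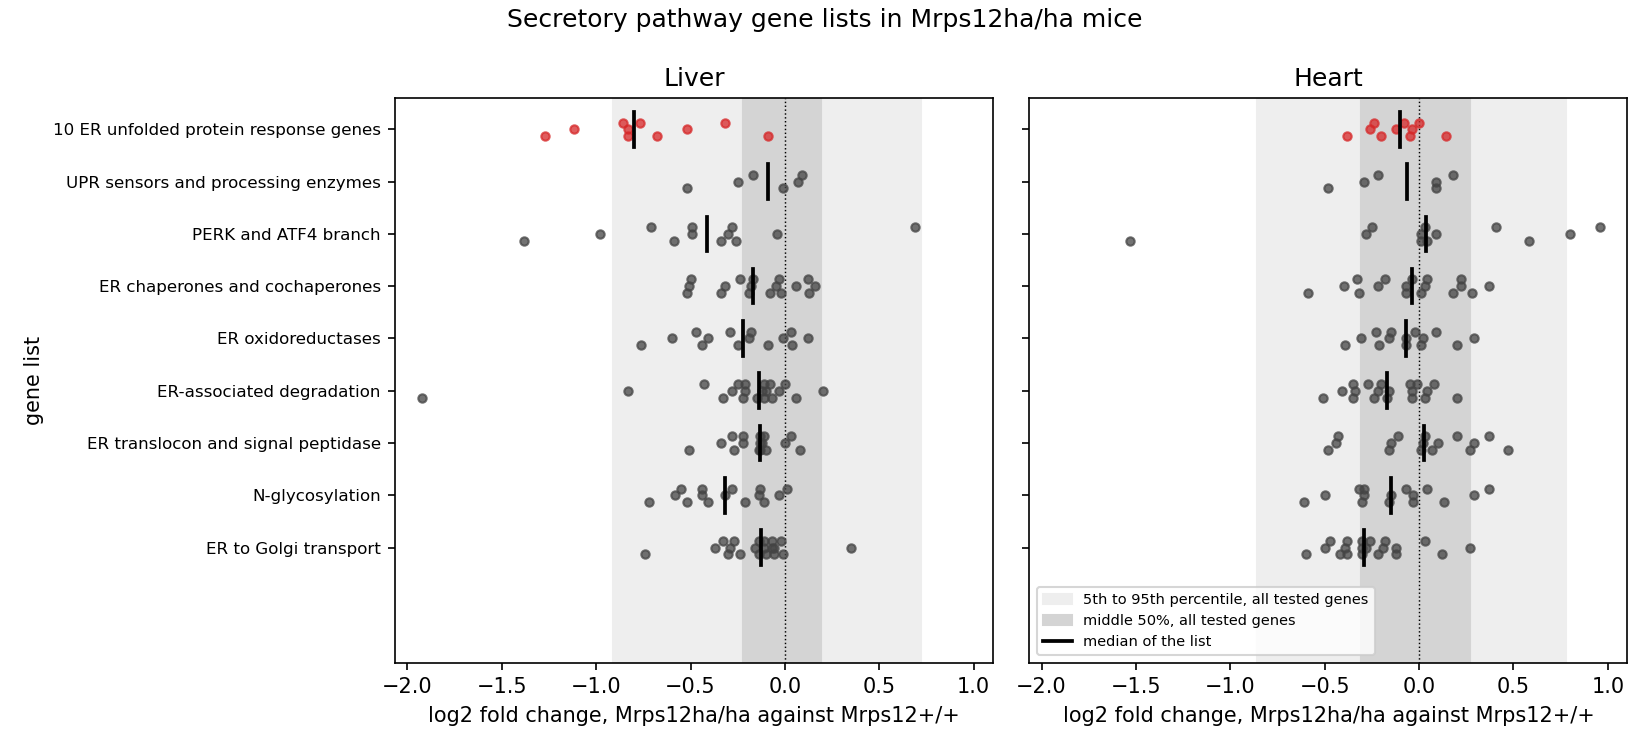
Log2 fold change of Mrps12ha/ha against Mrps12+/+ mice for each gene (points) of the 10 genes and of 8 further lists, with the median of each list (black line) and bands for all tested genes. In the liver the median of the 10 genes is -0.80 and those of the other lists lie from -0.41 to -0.09; in the heart the medians lie from -0.29 to 0.04.

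Genes of the circadian clock are given beside these results, on a list of 13 chosen after their values were seen. None of the 13 had an adjusted p under 0.05 in any comparison of genotypes (limma). In Mrps12ha/ha against Mrps12+/+ livers 6 of 13 clock genes were higher without overlap and 1 lower, against 1539 and 1503 of all 15314 genes. Dbp, a clock output gene, had 2393, 4431 and 4526 counts in Mrps12+/+, 2652, 4342 and 5813 in Mrps12ep/ep, and 6926, 9149 and 7899 in Mrps12ha/ha livers, a log2 fold change of 1.13 with a standard error of 0.31 (limma, adjusted p = 0.182). In the hearts, where the 10 genes did not separate the genotypes, 6 of 13 were higher without overlap and 3 lower, against 1788 and 1613 of all 16057 genes, and Dbp had a log2 fold change of 1.09. The hour at which the tissues were taken is not given in the sources used here, and its part in the liver values was not tested.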

How the data were processed

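RNA-seq was made from 54 libraries, 3 technical libraries for each of 3 mice per genotype in heart and in liver. Per the labels, the reads were processed with Trim Galore 0.4.1, cutadapt 1.18 and Salmon 1.1.0, the last with GENCODE transcripts on GRCm38 by the study's methods. The authors deposited, for each tissue, 1 table of gene-level normalized counts with a column per mouse, taken here as the pool of its 3 technical libraries. The study's methods speak of pooling biologically independent replicates, whereas the columns number 1 per biological replicate. The authors scaled each tissue on its own with DESeq2, so no test crossed tissues. The 4 deposited tables of the authors' own comparisons (fold changes and p-values) were not used. Low values were whole multiples of 1 step per column for 100.0% of them (tolerance 0.1 step), which gave the reads per mouse: 11.2 to 51.5 M reads in hearts and 21.2 to 81.5 M reads in livers. Raw counts were not analysed here.

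Tests took in every gene whose average across a tissue's 9 mice was 10 or more (16057 in heart, 15314 in liver) on log2(value + 1) with limma 3.58.1 (R 4.3.3), 1 fit per tissue over the 3 genotypes, two-sided, with Benjamini-Hochberg adjustment over all tested genes. A fold change is on this scale. Standard errors are those of limma after moderation. The code was tested on simulated data. The text names the 10 genes and the 5 genes per tissue most correlated with them. As no listed gene had an adjusted p under 0.05, each further list gave up to 2 genes. These had the largest change among genes whose groups did not overlap. Ddit3 is given for the heart besides, because the study reports raised Chop there. The 10 genes, the 8 pathway lists and the 9 marker lists were chosen with earlier results of these data known, and the clock list after its values were seen. The pathway counts leave out the 10 genes. Alternatives were other pseudocounts, filters, scalings, weights, limma-voom on the recovered reads, a replicate block and each mouse left out.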

Additional observations from a re-analysis of the deposited data

Results flagged for a closer look

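For some genes every Mrps12ha/ha heart differed from the wild-type mean in one direction and every Mrps12ha/ha liver in the other. The genes were picked by these directions, and the share of all genes that meet this rule is not given here. None of the genes named here had an adjusted p under 0.05 in either tissue (limma). These differences between tissues were not tested, because the tables were normalised separately. For Ddit3, which encodes CHOP, the log2 fold change against Mrps12+/+ was 0.80 in the heart and -0.71 in the liver, with standard errors of 0.15 and 0.22. For Ppp1r15a, which encodes the phosphatase subunit GADD34, it was 0.41 and -0.49, with standard errors of 0.39 and 0.33. The glycosyltransferases Alg12 (0.29 in heart, -0.72 in liver) and Alg2 (0.37 and -0.55) and the folding factors Pdia5 (0.29 and -0.76) and Erp29 (0.22 and -0.32) gave the same pattern. In Mrps12ep/ep mice Herpud1 was at -0.35 in the heart and 0.31 in the liver, with standard errors of 0.2 and 0.18. Ppp1r15b was at 0.08 and -0.16, with standard errors of 0.11 and 0.09, and the coat protein gene Sec24a at 0.11 and -0.23.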

How the results depend on the processing

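In the liver, none of the 10 genes passed the adjusted threshold under other pseudocounts, filters, scalings, weights or limma-voom or with any mouse left out, and leaving out the muscle-bearing Mrps12+/+ livers 1 and 2, chosen after seeing the data, called 1 (Pdia4). The median log2 fold change in the liver was -0.95 to -0.59 for Mrps12ha/ha against Mrps12+/+ with each mouse left out, and -0.89 to -0.61 against Mrps12ep/ep. In the heart, weighting mice by their spread called 1 gene in Mrps12ha/ha against Mrps12+/+ and 5 against Mrps12ep/ep, where 5573 and 6314 of all 16057 genes were called, and leaving out each mouse gave 0 to 2 and 0 to 4 (most without Mrps12ha/ha heart 2), with a median of -0.27 to -0.05 in the latter. The median log2 ratio of liver to heart was 1.65 in RPM, lower than on normalised counts. The cause of these differences was not tested. The replicate block gave 0 calls in all 6 comparisons and a median of -0.80 in Mrps12ha/ha against Mrps12+/+ livers. Samples with the same number shared deviations with correlations of -0.231 to 0.578 in hearts and -0.133 to 0.164 in livers. The highest, 0.578 and 0.409, were between Mrps12ep/ep and Mrps12+/+ hearts of numbers 1 and 2. The main fit did not take the numbers as pairs. The planned edgeR and DESeq2 fits were not run, and limma-voom was the only fit on recovered reads.

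The sign of the log2 fold change turned in these cases. For Mrps12ha/ha against Mrps12+/+ hearts, Xbp1 was -0.02 with TMM scaling and -0.03 with limma-voom, Sdf2l1 0.29 with weights and 0.09 with limma-voom, and Manf 0.06 with weights. For Mrps12ep/ep against Mrps12+/+ hearts, Hspa5 was 0.17 with weights, 0.03 with limma-voom and 0.07 with quantile normalisation, and Xbp1 -0.02 with weights. For Mrps12ha/ha against Mrps12ep/ep hearts, Xbp1 was 0.11 with weights and 0.01 with quantile normalisation, and Sdf2l1 0.18 with weights. For Mrps12ep/ep against Mrps12+/+ livers, weights gave Hspa5 0.05, Hsp90b1 0.07, Sdf2l1 0.04 and Pdia4 0.03. Without the shallowest pair of livers (also chosen after seeing the data) Hspa5 was 0.04 and Hyou1 0.10, and without the muscle-bearing livers Hspa5 was 0.09, Dnajb9 0.06, Hyou1 0.35 and Manf 0.04. In Mrps12ha/ha against Mrps12+/+ livers, Xbp1 was 0.08 without the shallowest pair and Herpud1 0.04 without the muscle-bearing livers.

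With each mouse left out, values crossed 0 in these ranges. Mrps12ha/ha against Mrps12+/+ hearts gave Creld2 -0.00 to 0.31, Herpud1 -0.26 to 0.11, Manf -0.16 to 0.15, Pdia4 -0.13 to 0.03, Sdf2l1 -0.42 to 0.15 and Xbp1 -0.09 to 0.07. Mrps12ep/ep against Mrps12+/+ hearts gave Creld2 -0.17 to 0.01, Hspa5 -0.11 to 0.07, Manf -0.01 to 0.12 and Xbp1 -0.06 to 0.08. Mrps12ha/ha against Mrps12ep/ep hearts gave Manf -0.20 to 0.11 and Xbp1 -0.12 to 0.06. Mrps12ep/ep against Mrps12+/+ livers gave Dnajb9 -0.19 to 0.05, Hsp90b1 -0.21 to 0.04, Hspa5 -0.13 to 0.17, Hyou1 -0.18 to 0.26, Manf -0.19 to 0.11, Pdia4 -0.23 to 0.06, Sdf2l1 -0.39 to 0.18 and Xbp1 -0.38 to 0.03. In Mrps12ha/ha livers Xbp1 gave -0.26 to 0.17 against Mrps12+/+ and -0.04 to 0.30 against Mrps12ep/ep.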
